A study of Arabidopsis thaliana with 6 samples.

Results

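The ZAT and AZF genes of Arabidopsis thaliana encode small zinc finger transcription factors, and 10 of them were followed here in shoots of the wild type and of the myc2 mutant. They were taken by gene identifier, with earlier results of these data known, as ZAT5, ZAT6, ZAT7, ZAT8, ZAT10 (also STZ), ZAT11, ZAT12 (also RHL41), AZF1, AZF2 and AZF3 among 28775 genes with a read count. Whole shoots were taken at an age of 2 weeks from plants kept at 22 °C under a cycle of 16 h light and 8 h dark, and their poly(A) RNA gave 3 libraries of Col-0, the wild-type accession, and 3 of the myc2 mutant. MYC2 is a basic helix-loop-helix factor of jasmonate signalling, and the question is which transcripts change in its mutant. No allele name for myc2 was found in the labels or methods, and the labels list no treatment for either genotype.

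Proteins of this family carry a pair of C2H2 zinc fingers of a plant-specific type, in which each finger holds a conserved stretch on its DNA-contacting helix, and most also carry an EAR motif, a short leucine-rich stretch that recruits TOPLESS-type corepressors. Their transcripts are known to rise within minutes to hours of wounding, cold, salt, high light, abscisic acid or oxidative stress. Many members act as repressors of stress-response genes, so that the family is counted among the early, fast-changing layer of the stress response.

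The coding sequence of every member held 2 copies of the finger signature, each 18 bases long. The first finger is shown for the tandem copies ZAT7, ZAT8 and AT3G46070, whose likeness bears on how their reads could be told apart, and for 4 members with a high level or a large change. Capitals mark the 18 bases that encode the signature, with 6 bases on either side, in the RefSeq annotation of TAIR10.1.

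ZAT7: tcgtttCAAGCTTTGGGAGGTCATcgtgca
ZAT8: tcgtttCAAGCTTTGGGAGGTCATcgtgca
AT3G46070: tcgttcCAAGCTTTAGGAGGCCACcgtgca
ZAT12: tcgttcCAAGCCTTAGGAGGTCACcgtgcg
ZAT10: tcttacCAAGCTCTCGGTGGTCACaaggca
AZF2: tcctatCAGGCTTTAGGCGGTCACaaagca
ZAT5: tcgttcCAAGCACTTGGTGGACACagagcg

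The first-finger stretches of ZAT7 and ZAT8 were identical over the printed bases. Over the whole coding sequence ZAT7 and ZAT8 were 88.2% identical, the closest pair of members, followed by ZAT6 and ZAT10 with 72.1%. AT3G46070 was 77.2% identical to ZAT8 and 74.5% to ZAT7. The longest run of bases shared without a mismatch by ZAT7 and ZAT8, over their whole gene spans, was 44. That is shorter than the read length the study gives for its RNA-seq. For RNA-seq data of other tissues the study describes a filter on mapping quality, which drops reads that fit several places. Its use on these libraries is not stated, and how the reads were divided between these copies was not checked.

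Words bound by known stress factors were looked up in the 250 bases before each annotated gene start, on both strands. The G-box CACGTG, the preferred site of MYC2, was in 6.49% of 27443 protein-coding promoters and in none of the 10 members, and its variant CACATG was in 11.1% and also in none of the members. The word CGCGT, known from calmodulin-binding CAMTA factors, was in 6.87% of promoters and in 3 members, ZAT7, ZAT8 and ZAT12. TTGAC, the core of the W-box bound by WRKY factors, was in 44.9% of promoters and in 8 members, and CCGAC, bound by CBF factors, in 12.0% and in 3 members. The promoters with CGCGT are printed because ZAT7, ZAT8 and ZAT12 are also among the members that fell at least 2-fold. AZF2 and ZAT10, the others of that group, held no CGCGT in this window. In the longer window of 1000 bases given below, chosen after seeing the data, both held CGCGT, which was in 20.7% of promoters. No other member held it in either window, ZAT6 and AZF1, which also fell, included. That longer window also held CACGTG in AZF1 and AZF2, and in 14.8% of promoters. Capitals mark CGCGT or its reverse complement ACGCG, which overlap each other where they read ACGCGT. No other word searched overlapped these capitals.

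ZAT7, minus strand, chr3:16926884-16927133: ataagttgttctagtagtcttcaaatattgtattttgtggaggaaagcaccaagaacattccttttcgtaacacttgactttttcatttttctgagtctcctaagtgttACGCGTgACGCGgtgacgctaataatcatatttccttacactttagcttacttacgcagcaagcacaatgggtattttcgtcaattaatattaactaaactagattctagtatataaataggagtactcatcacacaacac
ZAT8, minus strand, chr3:16923300-16923549: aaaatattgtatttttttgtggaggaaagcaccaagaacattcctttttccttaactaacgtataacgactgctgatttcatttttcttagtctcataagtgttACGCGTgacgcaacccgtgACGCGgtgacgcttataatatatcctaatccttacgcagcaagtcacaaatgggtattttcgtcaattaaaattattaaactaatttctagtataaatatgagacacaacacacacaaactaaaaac
ZAT12, plus strand, chr5:24102564-24102813: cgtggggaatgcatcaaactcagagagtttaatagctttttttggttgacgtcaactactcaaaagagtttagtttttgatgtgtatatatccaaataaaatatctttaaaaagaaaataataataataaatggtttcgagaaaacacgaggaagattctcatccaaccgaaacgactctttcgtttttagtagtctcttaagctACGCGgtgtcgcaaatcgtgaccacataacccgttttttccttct

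The ZAT7 and ZAT8 promoters, which aligned with 67.7% identity, each held 3 matches, and ZAT12 held 1. In ZAT7 they lay 130 to 141 bases before the start, in ZAT8 123 to 146 bases and in ZAT12 41 to 45 bases. A match is a description of letters and was not tested for binding.

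Library totals ranged from 21165967 to 30604815 read counts. Levels are counts scaled to library size (CPM) with factors from the trimmed mean of M-values (TMM), given as mean ± SD over 3 libraries per genotype. A gene was called changed at a Benjamini-Hochberg adjusted p under 0.05 in the quasi-likelihood test of edgeR over 18961 tested genes, of which 36.3% were called. Fold changes compare myc2 with Col-0, and their median over all tested genes was 0.01 on the log2 scale. The count column headers begin with a shared code for Col-0 replicates 1 and 2 and another code for Col-0 replicate 3. The myc2 libraries share a further code. Each code is read here as a sequencing run, which the sample labels and methods do not state. Run in this sense and genotype cannot be told apart. The 5 shoot markers were all read, at a summed 37340 to 42992 CPM in Col-0 and 34652 to 35828 CPM in myc2, while 5 seed markers together reached at most 0.193 CPM and 5 flower markers 3.26 CPM. Of 5 root markers, the root-hair genes RHD6, COBL9 and EXPA7 had 0 to 3 reads in any library, and the sum of the list, 38.7 to 40.6 CPM in Col-0 and 50.4 to 55.9 CPM in myc2, came almost wholly from the phosphate exporter gene PHO1.

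MYC2 itself had 205, 197 and 175 CPM in Col-0 replicates 1 to 3 and 69.0, 73.5 and 71.0 CPM in myc2. It was lower in every myc2 library but not absent, and a count per gene does not show which stretch of the transcript was read.

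Of the 10 members, 9 had enough reads to be tested. In myc2, 7 were lower, 1 was higher and 1 did not pass, beside 18.7% lower and 17.6% higher of all tested genes, and 5 of the 7 fell at least 2-fold, which 3.82% of all tested genes did. ZAT8, among those 5, had 6, 8 and 9 reads in myc2 and enough reads for the test in Col-0 alone. Its place among the tested genes thus depended on its Col-0 level. The median log2 fold change over the 9 was -1.77. The libraries of the genotypes did not overlap for 8 of the 9, against 49.7% of all tested genes. AZF2 fell most, then ZAT7, ZAT8, ZAT12 and ZAT10, while ZAT6 and AZF1 fell by less than 2-fold, ZAT5 rose and AZF3 and ZAT11 showed no detectable difference.

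**Figure D1:**
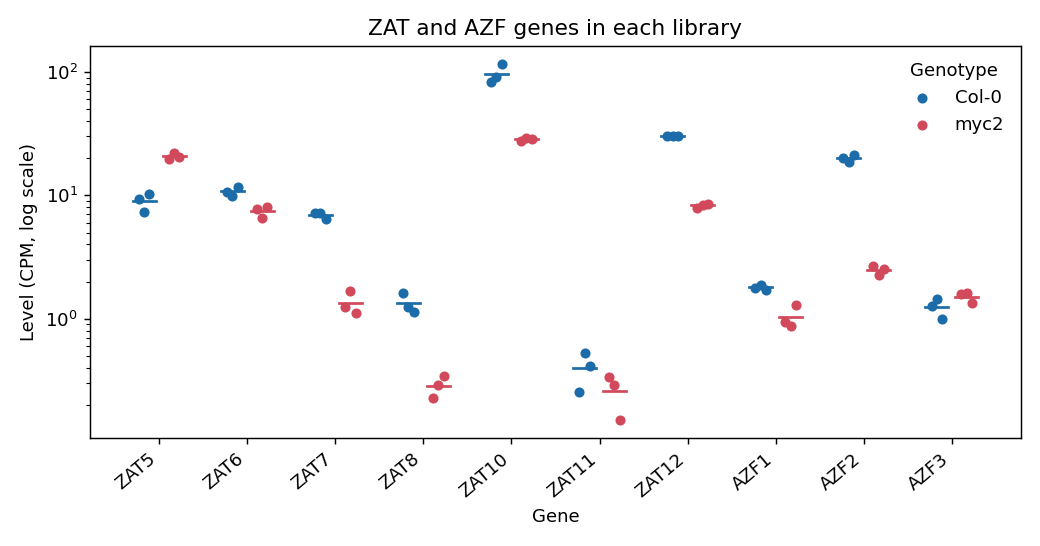
Level of each ZAT and AZF gene in CPM on a log scale (vertical axis) for each gene (horizontal axis), with 1 point per library and a line at the mean of 3 libraries, Col-0 in blue and myc2 in red. The genotypes are apart for 8 genes, with ZAT5 the one where myc2 lies above Col-0, and they overlap for ZAT11 and AZF3.

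AZF2 (AT3G19580, chromosome 3, 6802903 to 6804296, minus strand, TAIR10.1) encodes a repressor whose transcript is induced by abscisic acid and salt. Its level was 20.2, 18.7 and 21.1 CPM in Col-0 replicates 1 to 3 and 2.69, 2.27 and 2.55 CPM in myc2 replicates 1 to 3. The lowest Col-0 library lay far above the highest myc2 library. AZF2 fell from 20.0 ± 1.25 to 2.50 ± 0.213 CPM, to 12.5% of Col-0, with a log2 fold change of -3.0 (SE 0.118, 95% interval -3.26 to -2.74, edgeR adjusted p = 4.67e-09).

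AZF1 (AT5G67450, chromosome 5), which like AZF2 responds to abscisic acid and salt in roots, had 1.79, 1.88 and 1.72 CPM in Col-0 and 0.946, 0.879 and 1.30 CPM in myc2. All 3 myc2 libraries were below all Col-0 libraries, and the gene fell by 0.78 on the log2 scale (SE 0.219, edgeR adjusted p = 0.0150). The call rested on 131 reads in Col-0 and 83 in myc2. It was lost without myc2 replicate 1 (edgeR adjusted p = 0.0603), without myc2 replicate 2 (adjusted p = 0.0655) and against Col-0 replicate 3 alone (adjusted p = 0.0585).

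AZF3 (AT5G43170, chromosome 5, 17330945 to 17331646, minus strand) had 1.28, 1.45 and 0.998 CPM in Col-0 and 1.59, 1.61 and 1.33 CPM in myc2. The genotypes overlapped, and the log2 difference of 0.30 had a 95% interval from -0.18 to 0.79 (edgeR adjusted p = 0.313). Of its 702 bases, 408 overlap QWRF9 (AT5G43160) on the other strand, and without a stated strand setting the reads of the 2 genes cannot be told apart there. QWRF9 rose from 3.52 ± 0.0660 to 4.75 ± 0.808 CPM (log2 fold change 0.43, edgeR adjusted p = 0.0456). AZF3 was the only member whose annotated model overlaps that of another gene.

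ZAT12 (AT5G59820, chromosome 5, 24102814 to 24103794, plus strand) encodes a factor of the high-light, cold and oxidative stress responses. It had 30.2, 30.5 and 30.3 CPM in Col-0 and 7.91, 8.35 and 8.57 CPM in myc2. The Col-0 libraries of both runs were nearly equal, the genotypes lay far apart, and ZAT12 fell to 27.3% of Col-0 (log2 fold change -1.87, SE 0.0843, edgeR adjusted p = 1.43e-08). Over all alternative settings its log2 fold change stayed between -1.90 and -1.84.

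ZAT10 (AT1G27730, chromosome 1, 9648021 to 9649323, minus strand), a salt- and drought-induced EAR-motif repressor, had 82.3, 91.5 and 116 CPM in Col-0 and 27.5, 29.3 and 28.4 CPM in myc2. It was the member with the widest spread in CPM among Col-0 libraries, with replicate 3 above the others. ZAT10 fell from 96.7 ± 17.6 to 28.4 ± 0.903 CPM (log2 fold change -1.77, SE 0.114, edgeR adjusted p = 5.79e-07). It was also the 1 of 9 tested members called between the Col-0 runs, a contrast in which 15.6% of all tested genes were called. ZAT10 was higher in replicate 3 by 0.42 on the log2 scale (SE 0.0760, edgeR adjusted p = 0.000437, with replicate 3 alone in its group and assumed to vary like the other libraries). The fall was 1.61 on the log2 scale without Col-0 replicate 3 and was -2.03 against Col-0 replicate 3 alone.

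The neighbouring copies ZAT7 and ZAT8 both fell. ZAT7 (AT3G46090, chromosome 3, 16925881 to 16926883, minus strand), linked to salt tolerance through its EAR motif, had 7.21, 7.18 and 6.44 CPM in Col-0 and 1.25, 1.68 and 1.10 CPM in myc2. The log2 fold change of ZAT7 was -2.36 (SE 0.170, edgeR adjusted p = 7.40e-07). ZAT8 (AT3G46080, chromosome 3, 16922514 to 16923299, minus strand) had 1.62, 1.25 and 1.14 CPM in Col-0 and 0.227, 0.293 and 0.343 CPM in myc2, or 97 and 23 reads in all. Its libraries did not overlap between genotypes either, and its log2 fold change was -2.19 (SE 0.309, edgeR adjusted p = 0.000198), where the wider error goes with the few reads. AT3G46070, beside them on the chromosome, had 0 reads in all 6 libraries, which allows up to 3 reads or 0.103 to 0.145 CPM in a library.

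ZAT6 (AT5G04340, chromosome 5, 1216058 to 1217362, minus strand) is known from phosphate and root-growth control and from cadmium and cold tolerance. It had 10.7, 9.93 and 11.7 CPM in Col-0 and 7.72, 6.59 and 8.12 CPM in myc2. The groups were close but apart, and ZAT6 fell to 69.4% of Col-0 (log2 fold change -0.53, SE 0.118, edgeR adjusted p = 0.00425). Although ZAT6 and ZAT10 are the next closest pair in coding sequence, their 95% intervals of -0.79 to -0.27 and -2.02 to -1.52 did not meet.

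ZAT5 (AT2G28200, chromosome 2, 12023940 to 12025370, plus strand) went the other way. It had 9.26, 7.32 and 10.2 CPM in Col-0 and 19.8, 21.9 and 20.4 CPM in myc2. Every myc2 library was above every Col-0 library, and ZAT5 rose from 8.94 ± 1.48 to 20.7 ± 1.06 CPM (log2 fold change 1.20, SE 0.118, edgeR adjusted p = 1.12e-05). The rise was between 1.02 and 1.31 on the log2 scale in all alternatives run, and every one of them called it.

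ZAT11 (AT2G37430, chromosome 2, 15706285 to 15707224, plus strand), known from nickel tolerance and cell death, had too few reads to be tested. Its counts were 6, 11 and 12 in Col-0 and 9, 8 and 4 in myc2, or 0.400 ± 0.138 and 0.262 ± 0.0979 CPM. The groups overlapped, and a difference was not detectable at this depth. Without a filter on low counts its log2 fold change was -0.58 (SE 0.487, edgeR adjusted p = 0.411), and it was not called in the fits without Col-0 replicate 1 or without myc2 replicate 3 either, the others in which it had enough reads (adjusted p = 0.209 and 0.659).

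**Figure D2:**
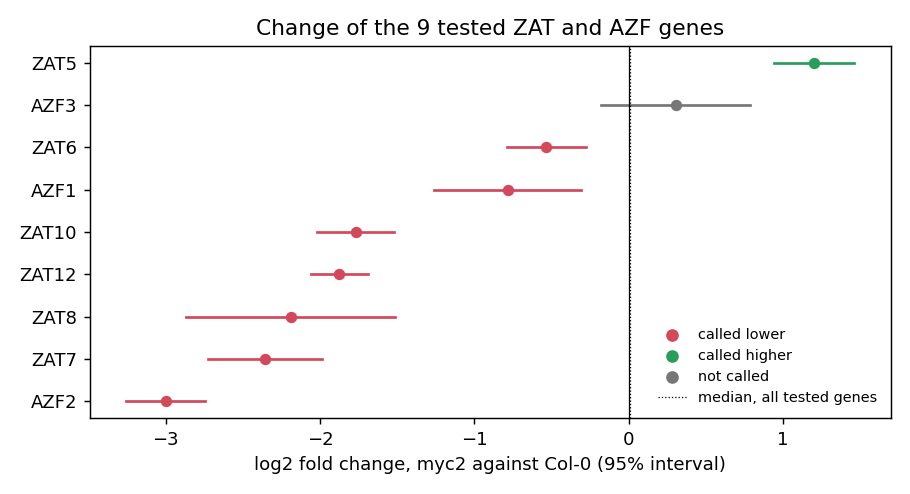
Log2 fold change of myc2 against Col-0 (horizontal axis) with its 95% interval for the 9 tested genes (vertical axis), red where called lower, green where called higher and grey where not called, with a dotted line at the median of all tested genes, 0.01. AZF2 lies farthest to the left at -3.0, 5 genes lie below -1, and ZAT5 lies farthest to the right at 1.20. AZF3 also lies right of the dotted line, at 0.30, and was not called.

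Levels can be set side by side between genes only per length, so CPM were divided by the annotated exon length in kb. In Col-0 the order was ZAT10 with 74.2 ± 13.5 CPM per kb, ZAT12 with 30.9 ± 0.110, AZF2 with 14.3 ± 0.900, ZAT6 with 8.26 ± 0.681, ZAT7 with 6.92 ± 0.438 and ZAT5 with 6.24 ± 1.03 CPM per kb. AZF3, ZAT8, AZF1 and ZAT11 followed at 1.77 to 0.425 CPM per kb. The libraries overlapped between the neighbours ZAT7 and ZAT5 and between AZF3 and ZAT8, and the other neighbours in this order were apart.

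In myc2 the order was led by ZAT10 with 21.8 ± 0.693 CPM per kb, then ZAT5 with 14.5 ± 0.737, ZAT12 with 8.44 ± 0.343 and ZAT6 with 5.73 ± 0.607 CPM per kb. ZAT5 thus had rank 6 in Col-0 and rank 2 in myc2, while AZF2 had rank 3 in Col-0 and rank 6 in myc2, where its level was 1.80 ± 0.153 CPM per kb. Per kb of coding length AZF2 had rank 5 in myc2, and the ranks of ZAT5 were as above. The libraries overlapped between AZF3 and AZF2, between AZF2 and ZAT7 and between ZAT8 and ZAT11.

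The 10 levels per kb added up to 136, 140 and 162 CPM per kb in Col-0 and to 55.7, 58.2 and 57.4 CPM per kb in myc2, so the family sum was lower in every myc2 library. ZAT10 made up 50.5% ± 4.24 of the sum in Col-0 and 38.2% ± 0.399 in myc2. ZAT12 made up 21.3% ± 1.98 and 14.8% ± 0.404. The share of ZAT5 was 4.27% ± 0.565 in Col-0 and 25.3% ± 0.787 in myc2, and that of AZF2 9.86% ± 0.723 and 3.15% ± 0.335 (SD, n = 3 libraries). These are whole-shoot samples, in which fewer cells of a type and less RNA per cell cannot be told apart.

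**Figure D3:**
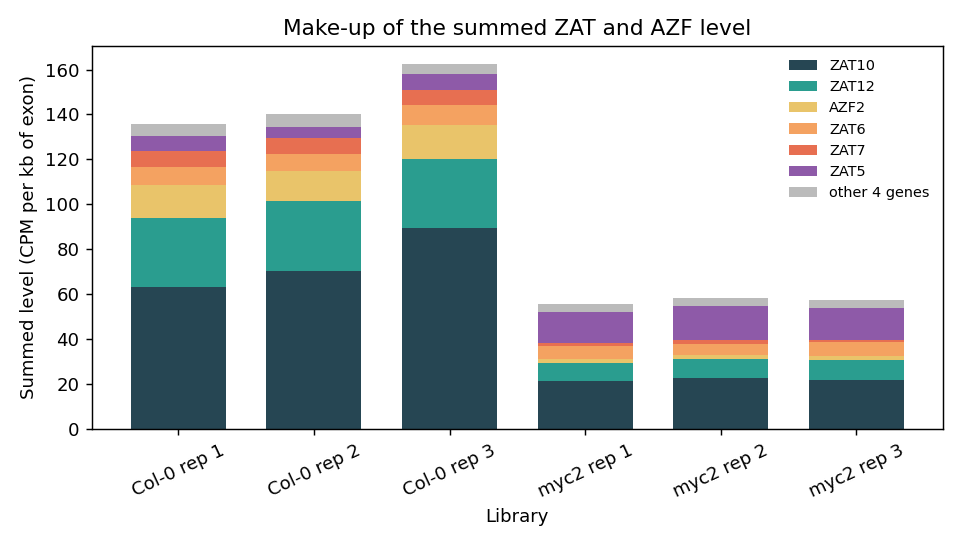
Summed level of the 10 genes in CPM per kb of exon (vertical axis) in each library (horizontal axis), stacked by gene, with AZF1, AZF3, ZAT8 and ZAT11 together in grey. The Col-0 bars reach 136 to 162 and the myc2 bars 55.7 to 58.2, and the ZAT5 segment is the one that is taller in myc2.

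The genes next to the members on the chromosomes did not share one direction. Of 19 neighbouring genes, 12 were tested, of which 3 were higher, 3 lower and 6 not called, or 50.0% called against 36.3% of all genes. ZAT5 lies between CSD2, a copper/zinc superoxide dismutase 7370 bases away that rose (log2 fold change 1.18, edgeR adjusted p = 3.42e-08), and ACA2, a carbonic anhydrase gene that fell by 1.53 on the log2 scale (edgeR adjusted p = 4.94e-05). HRS1, beside ZAT7, had 65.2 ± 4.97 CPM in Col-0 and 62.3 ± 4.33 CPM in myc2 (edgeR adjusted p = 0.557).

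Among other C2H2 finger genes both directions were found. Of 29 listed relatives, 6 had no read in any library and 12 were tested, of which 3 were higher, 2 lower and 7 not called, with a median log2 fold change of 0.11, or 41.7% called against 36.3% of all genes. ZFP8 and ZFP6, trichome regulators, rose from 17.7 ± 1.78 to 30.3 ± 1.14 CPM and from 0.184 ± 0.0767 to 1.11 ± 0.287 CPM (edgeR adjusted p = 3.94e-05 and 0.000381). ZFP6 had only 5, 2 and 7 reads in Col-0 and enough reads for the test in myc2 alone, so its testing depended on its myc2 level. ZAT14 fell from 2.31 ± 0.462 to 1.41 ± 0.104 CPM and GIS, another trichome regulator, from 4.54 ± 0.424 to 3.24 ± 0.262 CPM (adjusted p = 0.0155 and 0.0191). ZAT4 rose from 0.661 ± 0.170 to 1.28 ± 0.295 CPM (adjusted p = 0.0196), and ZFP4 had 9.31 ± 0.617 and 10.2 ± 0.493 CPM and was not called. The number lower was 1 in 5 of the 6 fits that left out a library, those without Col-0 replicate 2 or 3 or any of the myc2 libraries.

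Corepressors that EAR motifs recruit were read in every library. Of 8 tested genes 12.5% were called, below the 36.3% of all genes. TPL, the TOPLESS corepressor, rose 1.18-fold, from 268 ± 22.7 to 318 ± 9.60 CPM (edgeR adjusted p = 0.0148), none fell and 7 did not pass. The call of TPL was lost without Col-0 replicate 1, myc2 replicate 1 or myc2 replicate 3 and against Col-0 replicate 3 alone (edgeR adjusted p = 0.0502, 0.0613, 0.0776 and 0.0812), and 2 corepressor genes were called higher without Col-0 replicate 3. TPR1, TPR4 and the cofactor SAP18 were not called (adjusted p = 0.106, 0.195 and 0.148), and TPR4 had 157 ± 4.80 CPM in Col-0 and 146 ± 5.55 CPM in myc2.

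Of 11 genes known upstream of ZAT genes, 4 were lower and 7 not called, with a median log2 fold change of -0.03. The share called in either direction, 36.4%, was near the 36.3% of all genes and is no result about these genes as a group. The 4 called were all lower, beside 18.7% lower among all tested genes, and this difference was not tested. The lower ones were HSFA4A, a heat-shock factor upstream of ZAT12, from 12.3 ± 0.829 to 5.07 ± 0.352 CPM, the kinase gene MPK3 from 149 ± 10.5 to 80.9 ± 1.33 CPM, and the NADPH oxidase genes RBOHD and RBOHF by 1.62-fold and 1.44-fold (edgeR adjusted p = 4.72e-06, 1.09e-06, 3.34e-06 and 0.000343). ICE1, with 58.5 ± 2.57 and 57.1 ± 4.05 CPM, was not called, nor were MPK6 and the CAMTA genes CAMTA1, CAMTA2 and CAMTA3.

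Of 12 genes reported in earlier work as downstream of ZAT6, ZAT10 or ZAT12, 10 were tested. Of these, 6 fell, none rose and 4 were not called, with a median log2 fold change of -0.71. The share called was 60.0% against 36.3% of all genes, of which 18.7% were lower. Whether a member raises or represses each gene was not part of the list, and regulation by the members was not tested. Those that fell were the cold-response factors CBF1, CBF2 and CBF3, the iron superoxide dismutase FSD1, the ascorbate peroxidase APX1 and the iron-uptake regulator FIT. CBF1, CBF2 and CBF3, which lie together on chromosome 4, had log2 fold changes of -4.65, -3.09 and -2.87. CBF1 had only 6, 10 and 4 reads in myc2, and CBF3 had only 2 to 24 reads per library. Both had enough reads for the test in Col-0 alone, so their testing depended on their Col-0 levels. FIT fell from 1.99 ± 0.419 to 1.04 ± 0.320 CPM. FSD1 fell from 841 ± 74.1 to 453 ± 9.88 CPM and APX1 from 1152 ± 146 to 808 ± 13.3 CPM (edgeR adjusted p = 1.13e-06 and 0.000406). GSH1, the first enzyme of glutathione synthesis, had 484 ± 17.4 and 470 ± 4.92 CPM and was not called (adjusted p = 0.585).

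All 14 listed early wound-, touch- and elicitor-induced genes outside the C2H2 family fell, with log2 fold changes from -3.96 to -0.60 and a median of -2.01, beside -1.77 for the ZAT and AZF members. Of all tested genes 18.7% were called lower, and this list was drawn up with earlier results of these data known. The WRKY factor gene WRKY40, the cell-wall enzyme gene TCH4 and the CCCH zinc finger genes SZF1 and SZF2 had the smallest adjusted p and fell 15.6-fold, 6.38-fold, 8.11-fold and 4.14-fold. The members that fell were thus low in libraries in which this whole list was low, the part of that list in the members' result was not tested.

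**Figure D4:**
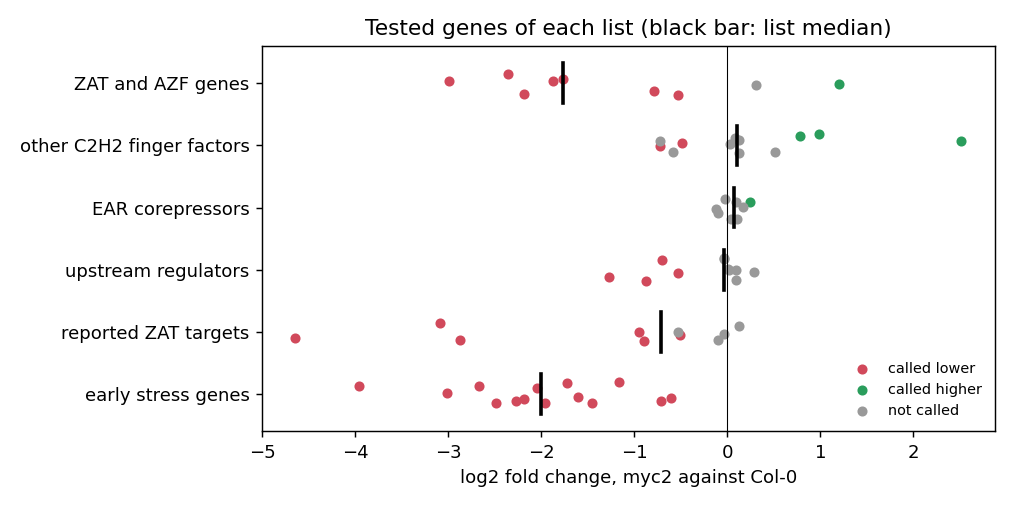
Log2 fold change of myc2 against Col-0 (horizontal axis) for every tested gene of each list (vertical axis, with random vertical offset), red where called lower, green where called higher and grey where not called, with a black bar at the list median. The ZAT and AZF genes and the early stress genes have medians of -1.77 and -2.01, while the medians of the other C2H2 genes and the corepressors are 0.11 and 0.07.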

How the data were processed

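Poly(A) RNA was prepared with a TruSeq kit of Illumina. The submitters' processing notes name fastp, HISAT2, SAMtools and StringTie with TAIR10. Tool versions, the read counter and its strand setting were not found in the labels or methods. The authors deposited raw read counts per gene, 1 file per library, and these were used as deposited. A further deposited table holds only the authors' own comparison (fold changes, errors and p-values) and was not used.

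Genes were kept by filterByExpr, scaled by TMM and tested on genotype alone with glmQLFit (robust) and glmQLFTest of edgeR 4.0.16 (R 4.3.3). SE is the log2 fold change over the root of F. Positions, lengths and sequences came from the RefSeq annotation of TAIR10.1, which matched 97.3% of identifiers.

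Named were all members, MYC2, and in each list up to 4 genes by adjusted p and the not-called gene of highest level. HRS1 and AT3G46070 were named as neighbours of ZAT7 and ZAT8, and AT3G46086 between these copies had no reads. Nearest profiles were named for the mean of the members and for ZAT7, ZAT10, ZAT12 and AZF2, not for the other tested members. The other list genes and neighbours named (ZAT4, APX1, FIT, MPK6, CAMTA1 to CAMTA3, QWRF9, CSD2 and ACA2) were chosen after their values were seen. The members and lists were chosen with earlier results of these data known. The study calls its replicates biological but does not say how plants were divided among them, so the p-values cover the spread among these libraries, whatever its source. The tried alternatives were DESeq2 1.42.0, limma-voom (limma 3.58.1), scaling by RLE or upper quartile, 2 filters, the replicate block, each library left out and the Col-0 runs as separate groups.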

Additional observations from a re-analysis of the deposited data

How the results depend on the processing

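Of the members, 7 were called lower and 1 higher in every fit over all libraries, except that 5 were lower with a filter of 5 CPM in 3 libraries, which left 6 members to test, and 6 against Col-0 replicate 3 alone. AZF2 and ZAT7 met the filter of 5 CPM through their Col-0 libraries alone, with at most 2.69 and 1.68 CPM in a myc2 library. Their calls under it thus depended on their Col-0 levels. Leaving out 1 library gave 6 to 7 lower and 1 higher. AZF1 was the member whose call was lost, and no member changed direction. The replicate numbers did not pair the libraries, since deviations of same-numbered libraries correlated at -0.02 to 0.02 across genes. The fit with the replicate block called 7 members lower and 1 higher and 6688 of all genes against 6889.

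Among the other C2H2 genes, the filter of 5 CPM gave 0 lower and 1 higher, and leaving out a library gave 1 to 2 lower. Corepressor genes called higher numbered 0 to 2 with a library left out and 2 against Col-0 replicates 1 and 2. Upstream genes called higher numbered 0 to 1 with a library left out and 2 against Col-0 replicate 3. Of the genes reported downstream of ZAT genes, 5 to 7 were called lower with a library left out. The filter of 5 CPM gave 4 lower in that list and DESeq2 gave 7. CBF1 and CBF2 met that filter through their Col-0 libraries alone. The causes were not tested. Per kb of coding instead of exon length, an alternative chosen after seeing the data, the members at ranks 7 to 9 in Col-0 (AZF3, ZAT8 and AZF1) and at ranks 5 to 7 in myc2 (AZF3, AZF2 and ZAT7) changed places. The members with the fewest reads over all libraries (ZAT8, ZAT11, AZF1 and AZF3) have the widest errors.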

Other observations

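Over the 6 libraries, the gene whose profile lay nearest to that of ZAT10, by Euclidean distance of centred log2(CPM + 0.5) values among 17556 genes, was AT3G56880, with 89.5 ± 16.4 CPM in Col-0 and 27.4 ± 0.745 CPM in myc2 (distance 0.149). GSTF12, an anthocyanin transport gene, was nearest to ZAT12 at a distance of 0.130, XTH19 to ZAT7 at 0.230 and SRO5 to AZF2 at 0.183. AT1G80440, AT2G38820, AT5G42050, AT1G06100 and SBP2 were nearest to the mean profile of the 9 tested members, at 0.0862 to 0.0952. With a pseudocount of 2 CPM none of these 5 remained among the nearest, and of the single nearest genes only that of ZAT10 did, 1 of 9 members. With 3 libraries per genotype many genes have such profiles.

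In a window of 1000 bases before the start, chosen after seeing the data, CACGTG was found in 2 members, AZF1 and AZF2, and in 14.8% of all promoters. CACATG was in 1 member, ZAT11, and in 37.7%, and CGCGT in 5 members, ZAT7, ZAT8, ZAT10, ZAT12 and AZF2, and in 20.7%. TTGAC was in all 10 members and in 88.1%, and CCGAC in 5 members and in 37.4%. ZAT5, which rose, ZAT6, which fell, and AZF3, which was not called, held neither of the MYC2 words and no CAMTA word (CGCGT). These are descriptions of letters over 10 genes and were not tested.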
